A study of Rattus norvegicus with 9 samples.

Results

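Cyanidin-3-O-glucoside (C3G), an anthocyanin pigment of dark fruits, was compared with its absence in beta cells that were held in palmitic acid (PA). INS-1E, a rat insulinoma line that makes and secretes insulin, was kept for 24 h in 0.5 mM PA, or in 0.5 mM PA mixed with 50 µM C3G, so that both groups carried the fatty acid. A further group received BSA, the albumin vehicle, without PA. The compared groups hold 3 libraries each, which makes 6 of the 9 libraries of the series, and 12958 of the 20645 listed genes reached a mean FPKM (fragments scaled to gene length and library depth) of at least 1 over the 9 libraries and were tested. All cells come from a single line, no library with C3G in the absence of PA was analysed here, and the labels do not say whether replicates came from separate cultures, so p-values measure the spread between these samples, which may be technical.

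Beta cells store insulin in dense granules and release it when glucose entry and metabolism close potassium channels and open calcium channels. Proinsulin is folded in the endoplasmic reticulum (ER), and an overload of that compartment is sensed by PERK, IRE1 and ATF6, which raise chaperones, degradation of misfolded proteins and, through ATF4 and CHOP, a stress programme. Long exposure to palmitate is a textbook way of loading the beta-cell ER.

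Of the 12958 tested genes, 2752 differed between PA + C3G and PA, 1436 of them higher with C3G and 1316 lower, by edgeR's quasi-likelihood test at an adjusted p-value under 0.05. These calls are 21.2% of the tested genes, with 11.1% higher and 10.2% lower. Without PA replicate 3, 1718 passed (921 higher and 797 lower). Most were small. The median size of a called change was 0.30 on the log2 scale, which is a 1.23-fold change, and 2322 of the called genes moved by less than 1.5-fold. At a fold change over 2 and an unadjusted p-value under 0.05, 147 genes (1.13%) passed, 91 higher and 56 lower, and 98 of these had a mean FPKM under 5. In 39.5% of the tested genes the PA and PA + C3G libraries did not overlap in FPKM.

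The split between higher and lower calls depended on the scaling of the libraries, in which the insulin genes weigh heavily. Ins1 and Ins2 together took 2.92 to 3.13% of the FPKM sum in the PA libraries and 6.94 to 7.90% in the PA + C3G libraries, beside 7.38 to 7.70% in the BSA libraries. With TMM normalization the median log2 fold change over all tested genes was −0.00. With each library set to the same FPKM sum it was −0.09, and the calls then split into 774 higher and 2554 lower. With Ins1 and Ins2 left out of that sum the split was 1184 higher and 1522 lower. Counts for gene groups are given with the equal-sum value where it differs. BSA levels are set beside the others as levels only, since a comparison of PA with BSA would share the PA libraries.

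Library totals were 45559993 to 66730721 estimated counts. Precision followed the level of a gene. The median SE of the log2 fold change was 0.19 for genes at 1 to 5 FPKM, 0.09 at 5 to 20, 0.06 at 20 to 100 and 0.05 at 100 or more, and the share of genes called rose over these classes, from 10.2% to 18.3%, 29.2% and 46.3%. A weakly expressed gene that was not called is therefore not shown to be unchanged. The libraries matched their labelled cell type. Of the 10 beta-cell markers 9 had a row, all 9 exceeded a mean of 1 FPKM, and 7 were called higher in PA + C3G. Delta-cell, endothelial and leukocyte markers each summed to less than 1 FPKM in every library. Pdgfra was the sole fibroblast marker with a mean above 1 FPKM, and Krt7, a keratin also seen in ducts, gave a duct sum of 86.4 to 124 FPKM in PA and 101 to 149 in PA + C3G, ranges that overlap.

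**Figure D1:**
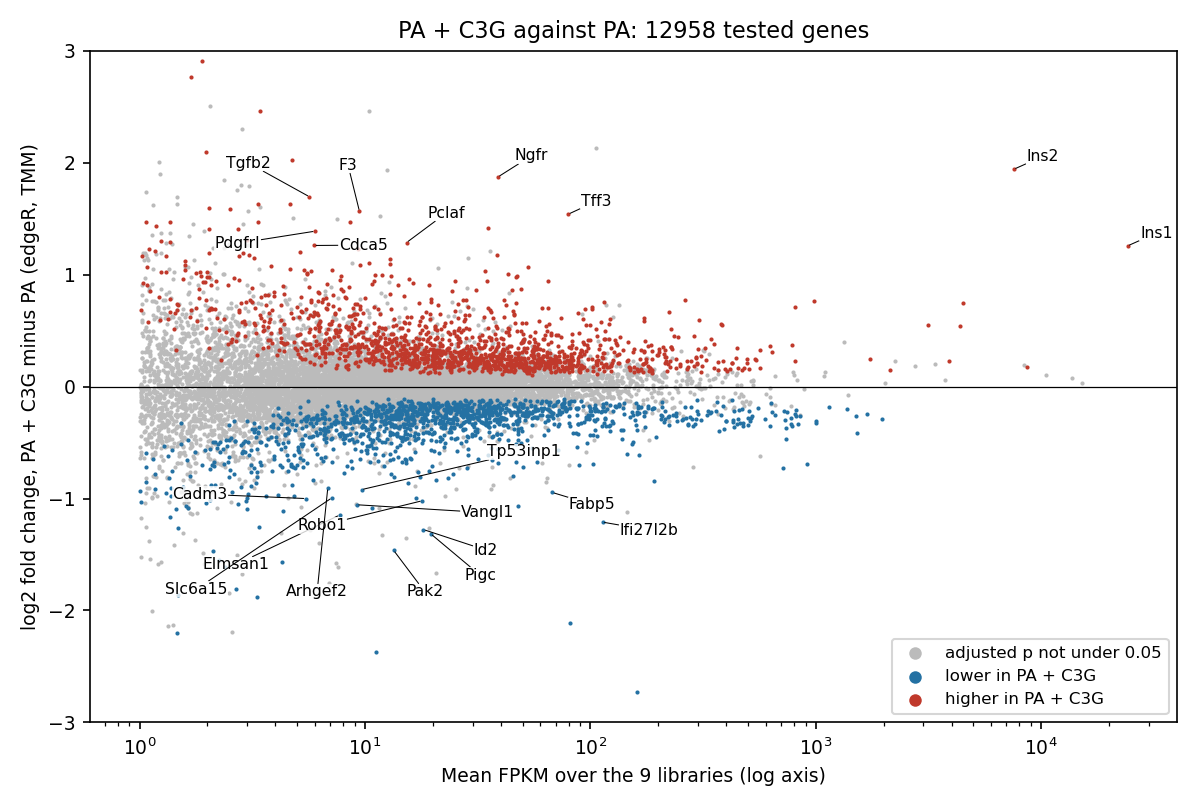
Each point is 1 of the tested genes, placed by its mean FPKM over the 9 libraries (log axis) and by its log2 fold change in PA + C3G against PA, with genes at an adjusted p-value under 0.05 in red (higher) or blue (lower) and the rest in grey. The plot stops at a log2 change of 3 in either direction, which leaves out 23 genes, and it shows Ins1 and Ins2 at the far right above the called genes of comparable level.

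Insulin transcripts rose more than any other called gene with a mean of 100 FPKM or more. Ins2, the orthologue of the human insulin gene, was 1748, 2099.7 and 1765 FPKM in the PA libraries and 6364, 7699.97 and 6959 in the PA + C3G libraries. All 3 PA + C3G libraries lay above all 3 PA libraries, and the mean BSA level was 13778 ± 1345 (SD, n = 3). The log2 fold change was 1.94 ± 0.10 (SE, edgeR adjusted p = 1.77e-05), a 3.84-fold rise. Ins1, the second insulin gene of rodents, was 14342, 12999 and 13892 FPKM in the PA libraries and 36222, 29172 and 30612 in the PA + C3G libraries, a change of 1.26 ± 0.08 (SE, edgeR adjusted p = 3.22e-05). Its PA + C3G libraries all lay above the mean BSA level of 26649.7 ± 1749, while those of Ins2 all lay below theirs. Ins1 and Ins2 are close copies, and counting could have shifted fragments between them. In bulk RNA, fewer cells with a transcript and less transcript per cell cannot be told apart.

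The balance between the insulin genes also differed. The Ins2 to Ins1 ratio of FPKM, which does not depend on the scaling of a library, was 0.122, 0.162 and 0.127 in PA and 0.176, 0.264 and 0.227 in PA + C3G, without overlap, and 0.464 to 0.622 in BSA. Means were 0.137 ± 0.022 and 0.222 ± 0.044 (SD, n = 3), a 1.62-fold difference. A two-sided exact permutation test gave p = 0.10, which is the smallest p that 3 against 3 libraries can reach.

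Among the other islet hormones, Iapp, which encodes the amyloid peptide secreted with insulin, rose from 2489 ± 123 FPKM in PA to 3561 ± 189.7 in PA + C3G (SD, n = 3), a log2 change of 0.55 ± 0.06 (SE, edgeR adjusted p = 2.78e-04). Gcg, the glucagon gene, varied widely between replicates, at 6.02, 1.35 and 3.35 FPKM in PA and 22.5, 4.17 and 13.2 in PA + C3G, and its change of 1.93 ± 0.70 did not pass (adjusted p = 0.0814). Npy was 332 ± 15.8 FPKM in PA and 339 ± 17.8 in PA + C3G, with an adjusted p of 0.522. Of 5 tested hormone genes, 3 were called higher and none lower.

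The upstream sequence of the insulin genes is shown because it holds the E-box to which the beta-cell factor NEUROD1 is known to bind. The letters GCCATCTG were searched on both strands of RefSeq promoter windows that run from 250 bases before to 50 after the start of a gene (GRCr8), and they occur in 413 of 33469 windows (1.23%). The 250 bases before the start of Ins1 (chr1:261185869-261186118, plus strand) hold 2 matches and those of Ins2 (chr1:207273806-207274055, minus strand) hold 1, in capitals. A match is a string of letters and not evidence of binding.
Ins1: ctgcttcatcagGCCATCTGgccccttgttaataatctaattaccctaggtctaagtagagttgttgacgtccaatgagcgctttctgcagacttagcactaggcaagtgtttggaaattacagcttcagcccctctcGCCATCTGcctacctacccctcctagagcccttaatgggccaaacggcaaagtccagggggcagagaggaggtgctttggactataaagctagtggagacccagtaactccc
Ins2: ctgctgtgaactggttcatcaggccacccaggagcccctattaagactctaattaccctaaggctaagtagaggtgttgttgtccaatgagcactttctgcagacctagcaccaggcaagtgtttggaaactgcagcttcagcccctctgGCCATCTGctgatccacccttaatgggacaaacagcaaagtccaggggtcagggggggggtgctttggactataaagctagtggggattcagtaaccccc

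Beta-cell transcription factors rose as well, 10 of 19 tested and none lower, also with equal FPKM sums, with a median log2 change of 0.26 (0.17 with equal sums) beside −0.00 over all genes. Without PA replicate 3, 8 were called. Mnx1, which keeps beta cells from taking other islet fates, was 24.5, 29 and 23.6 FPKM in PA and 43.6, 56.8 and 47.9 in PA + C3G, with a change of 0.98 ± 0.11 (SE, edgeR adjusted p = 4.01e-04), and the groups did not overlap. Pdx1, the master factor of the pancreas and an activator of insulin, was 147, 188 and 155 FPKM in PA and 226, 282 and 251 in PA + C3G, a change of 0.67 ± 0.10. Its PA + C3G values spread around the BSA mean of 254 ± 8.75.

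Mafa, the glucose-responsive insulin activator of mature cells, was 188, 245 and 201 FPKM in PA and 271, 369.8 and 296 in PA + C3G, a change of 0.60 ± 0.12, with BSA at 381 ± 6.53. Nkx6-1 rose by 0.58 ± 0.13 to 76 ± 7.83 FPKM, above both PA (52.1 ± 9.52) and BSA (50.02 ± 4.89). Isl1 (0.52 ± 0.08), Myt1 (0.43 ± 0.04), Hnf4a (0.42 ± 0.10), Nkx2-2 (0.34 ± 0.04) and Foxo1 (0.26 ± 0.05) rose by less. Neurod1 (0.11), Pax6 (0.02) and Foxa2 (0.04) did not pass, with adjusted p-values of 0.225, 0.835 and 0.616.

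Genes of prohormone processing and the secretory granule rose in 13 of 24 tested members and fell in 1, with a median of 0.27 (0.18 with equal sums, where 11 rose and 2 fell). Pcsk1, the convertase that starts proinsulin cleavage, was 6.51, 6.69 and 6.16 FPKM in PA and 13.3, 11.2 and 13 in PA + C3G, a log2 change of 0.99 ± 0.08 (SE, edgeR adjusted p = 1.21e-04), below its BSA mean of 20.2 ± 1.66. Pcsk2, the convertase that completes it, rose by 0.42 ± 0.09, and Pcsk1n, an inhibitor of PCSK1, by 0.55 ± 0.05. Chgb, a granin of the granule core, was 4824, 4153 and 4201 FPKM in PA and 8182, 6358 and 6976 in PA + C3G, so that PA + C3G stood above PA and PA above the BSA mean of 1859 ± 313. The granin Chga rose from 3678 ± 212 FPKM in PA to 5232 ± 142 in PA + C3G (log2 change 0.54 ± 0.05). Sytl4, Rab27a and Rab3a, which dock granules at the membrane, rose by 0.51 ± 0.09, 0.47 ± 0.09 and 0.35 ± 0.07. Cacna2d1, a calcium channel subunit, was the member that fell (−0.23 ± 0.05). Cpe (0.10, adjusted p = 0.113) and the zinc transporter Slc30a8 (0.13, adjusted p = 0.11) did not pass.

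The machinery that senses glucose was higher in 6 of 14 tested members and lower in none (1 lower with equal sums). Slc2a2, which encodes the GLUT2 glucose transporter, was 101, 107 and 99.99 FPKM in PA and 168, 178 and 169 in PA + C3G, a change of 0.78 ± 0.04 (SE, edgeR adjusted p = 1.99e-05). Groups were far apart, yet the PA + C3G level stayed below the BSA mean of 509.7 ± 18.4. Trpm5, a cation channel, changed most on the log scale but at a low level, from 0.415 ± 0.0832 FPKM in PA to 1.74 ± 0.260 in PA + C3G (2.09 ± 0.26, edgeR adjusted p = 7.10e-04). Kcnj11, the pore of the ATP-sensitive potassium channel, rose by 0.37 ± 0.04, and Abcc8, the partner subunit, stood at 0.04 with an adjusted p of 0.574. Txnip, a glucose-induced inhibitor of thioredoxin, was 9.50, 9.01 and 8.54 FPKM in PA and 12.5, 10.4 and 11.7 in PA + C3G, did not overlap and did not pass (adjusted p = 0.111), against a BSA mean of 90.4 ± 21.8.

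Of 19 receptors that tune insulin secretion, 8 rose and 2 fell (6 and 2 with equal sums). Gpr119, a lipid-sensing receptor, was 28.2, 31.3 and 27.3 FPKM in PA and 43.6, 49 and 47.3 in PA + C3G (log2 change 0.72 ± 0.07). The short-chain fatty acid receptor Ffar3 rose by 0.73 ± 0.10, the incretin receptors Gipr and Glp1r by 0.58 ± 0.09 and 0.29 ± 0.07. Drd2, a dopamine receptor that restrains secretion, fell from 8.58 ± 0.654 FPKM in PA to 4.55 ± 0.284 in PA + C3G (−0.88 ± 0.18, edgeR adjusted p = 0.00781), with BSA at 1.05 ± 0.302. The muscarinic receptor Chrm3 fell too (−0.61 ± 0.14). The median of the list was 0.04 and turned to −0.05 with equal sums.

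**Figure D2:**
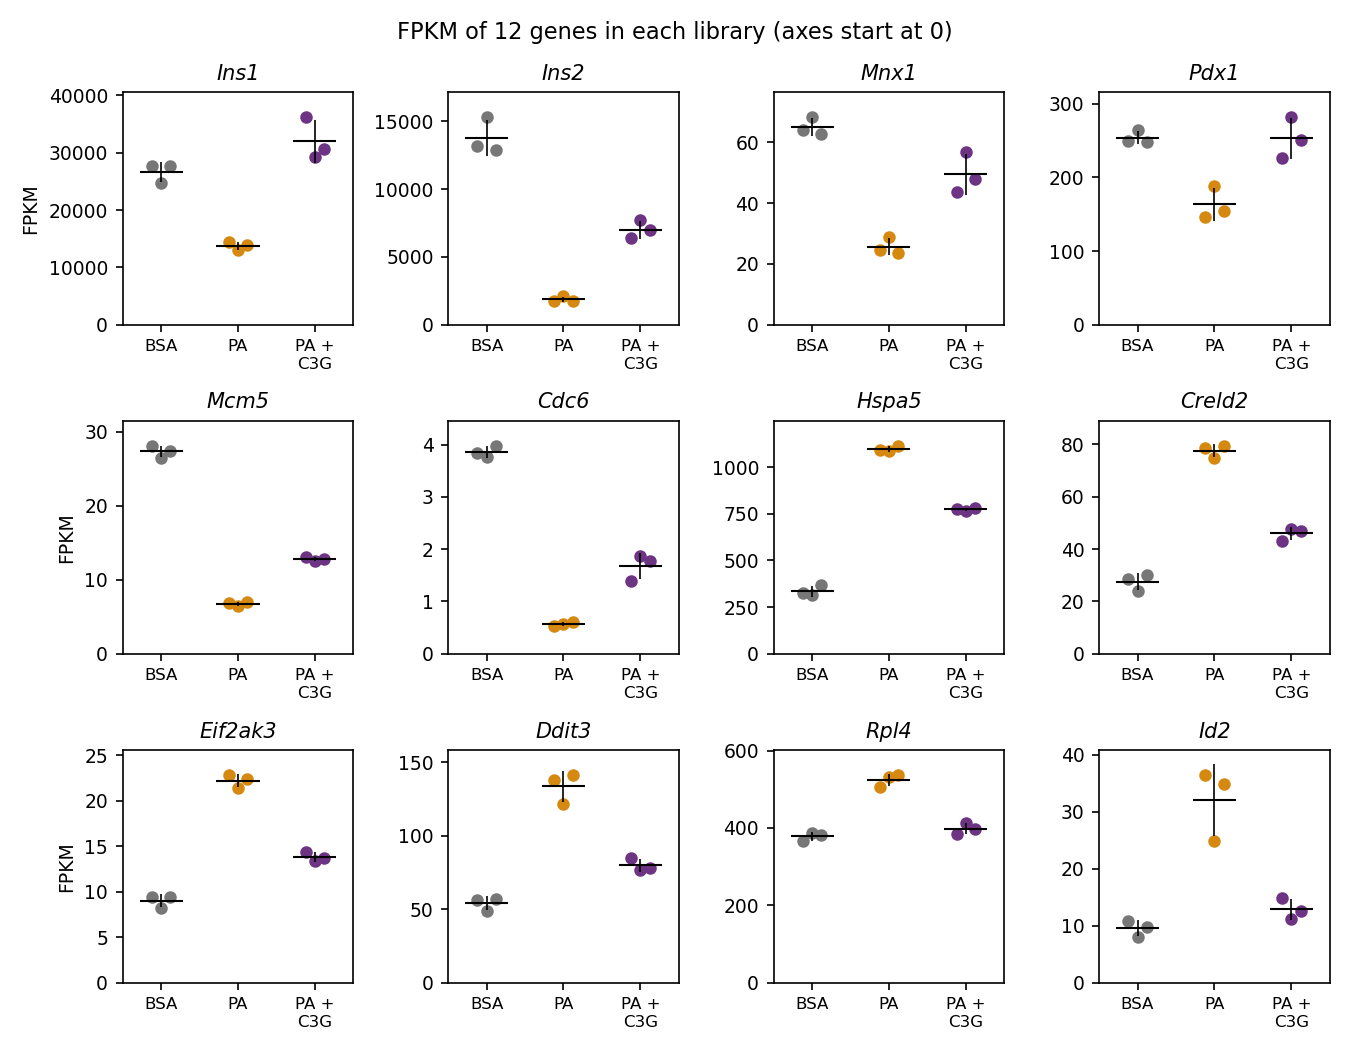
FPKM of 12 genes in each of the 9 libraries, with linear axes from 0, points for libraries, a bar for the group mean and a vertical line for 1 SD (n = 3). In Ins1, Ins2, Mnx1, Pdx1, Mcm5 and Cdc6 all PA + C3G points lie above all PA points, and in Hspa5, Creld2, Eif2ak3, Ddit3, Rpl4 and Id2 all lie below.

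Of 16 sensors and transducers of ER stress, 6 fell and 1 rose (7 and 1 with equal sums). Eif2ak3, which encodes PERK, was 22.8, 21.4 and 22.4 FPKM in PA and 14.4, 13.3 and 13.7 in PA + C3G, a log2 change of −0.65 ± 0.06 (SE, edgeR adjusted p = 2.14e-04). Ern1, which encodes IRE1, was 42.3, 40.5 and 43.1 FPKM in PA and 26, 26.8 and 27.4 in PA + C3G (−0.61 ± 0.06, edgeR adjusted p = 2.30e-04), and Atf6 was 48.3, 51.4 and 52.5 FPKM in PA and 31.4, 32.7 and 32.9 in PA + C3G (−0.61 ± 0.04, edgeR adjusted p = 4.06e-05). For each sensor the groups were apart and the PA + C3G level remained above the BSA mean, which was 9.0 ± 0.731, 17.5 ± 1.56 and 22.8 ± 0.608 FPKM. Wfs1, an ER membrane protein whose loss causes diabetes in Wolfram syndrome, fell (−0.52 ± 0.10). The member that rose was Ero1a, an ER oxidase (0.34 ± 0.07). Xbp1, the target that IRE1 splices, stood at 0.15 (adjusted p = 0.0611). Gene counts do not show how much of it is spliced.

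In the ATF4 and CHOP programme the members parted. Ddit3, which encodes CHOP, was 138, 122 and 141 FPKM in PA and 84.7, 76.7 and 78.2 in PA + C3G, a change of −0.70 ± 0.08 (SE, edgeR adjusted p = 3.99e-04), with BSA at 54.2 ± 4.70. Ppp1r15a, which encodes GADD34, the CHOP-induced phosphatase subunit that restarts translation, was 72.6, 69.8 and 75.4 FPKM in PA and 42.8, 39.5 and 39.4 in PA + C3G (−0.80 ± 0.05, edgeR adjusted p = 2.71e-05). Atf4 itself stood at 0.04 ± 0.08 (adjusted p = 0.804), Trib3 at −0.03 (adjusted p = 0.858) and Atf3 at −0.25 (adjusted p = 0.169). Meanwhile 11 of the 36 tested members rose. Nupr1, a stress-induced chromatin protein, was 81.3, 71 and 80.6 FPKM in PA and 129, 118 and 119.6 in PA + C3G (0.69 ± 0.07, edgeR adjusted p = 3.21e-04). The serine and one-carbon enzymes Psph (0.61 ± 0.08), Shmt2 (0.42 ± 0.07), Psat1 (0.38 ± 0.09) and Mthfd2 (0.37 ± 0.09), the asparagine synthetase Asns (0.28 ± 0.05), the amino acid transporter Slc7a5 (0.32 ± 0.08) and the glutathione-degrading Chac1 (0.49 ± 0.10) were among them. The list counted 11 higher and 3 lower under TMM and 7 higher and 6 lower with equal sums, where the median moved from 0.11 to 0.02.

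ER chaperones and disulfide isomerases fell in 11 of 28 tested members and rose in 2, or 14 and 1 with equal sums. Creld2, an ER stress-induced disulfide isomerase, was 78.8, 74.8 and 79.4 FPKM in PA and 43.1, 47.8 and 46.9 in PA + C3G, a change of −0.72 ± 0.08 (SE, edgeR adjusted p = 4.54e-04). Hspa5, which encodes BiP (GRP78), the main chaperone of the ER lumen, was 1093, 1086 and 1114 FPKM in PA and 774, 764 and 784 in PA + C3G, 1.38-fold lower (−0.47 ± 0.05, edgeR adjusted p = 5.55e-04). Its BSA mean was 336 ± 29.7. Manf, a secreted ER protein that protects beta cells, fell (−0.51 ± 0.07), as did Hyou1 (−0.47 ± 0.07), Dnajb9 (−0.47 ± 0.06) and Hsp90b1 (−0.29 ± 0.07). Erp29 (0.33 ± 0.05) and Fkbp11 (0.16 ± 0.03) rose. Members not past the test include Calr (−0.01), P4hb (0.05), Pdia3 (0.06) and Pdia6 (0.06), with adjusted p-values from 0.52 to 0.932. The summed FPKM of the list was 7452 to 7809 in PA, 6425 to 7191 in PA + C3G and 3491 to 3954 in BSA. Its median log2 change was −0.10, and −0.19 with equal sums.

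Genes of ER-associated degradation, which returns misfolded proteins to the cytosol, fell in 15 of 29 members and rose in none, 18 fell with equal sums, and 7 to 9 fell without PA replicate 1 or 3 or PA + C3G replicate 2 or 3. Edem1, a lectin that marks proteins for disposal, was 34.5, 32.3 and 35 FPKM in PA and 23.7, 22.4 and 24.9 in PA + C3G (−0.48 ± 0.07, edgeR adjusted p = 0.00162), below its BSA mean of 26.6 ± 2.52. Herpud1 was 165, 153 and 171 FPKM in PA and 129, 122 and 125 in PA + C3G (−0.34 ± 0.05). Sel1l, the scaffold of the ligase, was 97.3, 101 and 98.9 FPKM in PA and 72.1, 80.5 and 76.5 in PA + C3G (−0.34 ± 0.05). Groups did not overlap in these genes, nor in Ubxn4, an adaptor of the extraction ATPase, at 107, 108 and 112 FPKM in PA and 81.5, 78.8 and 80.3 in PA + C3G (−0.41 ± 0.03, edgeR adjusted p = 1.07e-04). Derl3 fell most (−0.64 ± 0.14). Syvn1, the ligase HRD1, fell less (−0.16 ± 0.04). The median of the list was −0.15, and −0.24 with equal sums.

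Promoters of the ER genes are shown for the ER stress response element, CCAAT, 9 free bases and CCACG, to which ATF6 is known to bind. It was found on either strand in 22 of the 33469 windows (0.0657%), in 15 of the 9217 windows of tested genes (0.163%), and in 6 of the 24 windows found for the 28 chaperone genes, which belong to Hspa5, Hsp90b1, Calr, Canx, Dnajc3 and Creld2. Of those 6, Hspa5, Hsp90b1, Canx and Creld2 fell, and Calr (−0.01) and Dnajc3 (−0.09) did not pass. Chaperone genes that fell hold 10 of the 24 windows. Of the 21 windows of degradation genes, Derl3 had it, and of the 13 windows of sensors and transducers Xbp1 and Ero1b. The 250 bases before the start are printed for Hspa5 (chr3:38452766-38453015, plus strand) and Creld2 (chr7:121789134-121789383, plus strand), with the element in capitals.
Hspa5: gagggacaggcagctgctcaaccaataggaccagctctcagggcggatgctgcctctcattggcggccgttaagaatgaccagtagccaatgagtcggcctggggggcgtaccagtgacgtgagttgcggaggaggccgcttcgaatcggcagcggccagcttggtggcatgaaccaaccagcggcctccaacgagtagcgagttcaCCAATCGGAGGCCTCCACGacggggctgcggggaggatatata
Creld2: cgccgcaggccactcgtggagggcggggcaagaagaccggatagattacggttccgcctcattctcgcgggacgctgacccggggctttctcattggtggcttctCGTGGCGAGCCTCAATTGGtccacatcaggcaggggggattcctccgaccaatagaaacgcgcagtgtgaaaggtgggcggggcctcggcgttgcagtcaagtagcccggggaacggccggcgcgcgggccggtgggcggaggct

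The element TTGCATCA, the core bound by ATF4 with C/EBP partners, was in 266 of all windows (0.795%). Of the 9217 windows of tested genes 55 had it (0.597%). It was in 9 of the 33 windows found for the ATF4 and CHOP list. Genes that rose hold 11 of those 33 windows, and 4 of them had it, Chac1, Slc1a4, Nupr1 and Cars1 (named Cars in the data). The other genes with a match, Ppp1r15b, Fgf21, Aars1, Nars1 and Mars1, were not called. The window before Nupr1 (chr1:190645902-190646151, minus strand) is printed with the match in capitals.
Nupr1: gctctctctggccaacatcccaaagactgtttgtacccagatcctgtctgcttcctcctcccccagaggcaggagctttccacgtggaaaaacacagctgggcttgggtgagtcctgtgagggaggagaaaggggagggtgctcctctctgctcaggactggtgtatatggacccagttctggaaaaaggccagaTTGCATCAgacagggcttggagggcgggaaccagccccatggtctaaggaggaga

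DNA replication genes rose in most tested members. Of 44 tested genes of licensing and the fork, 29 rose and 1 fell. With equal sums 26 rose and 3 fell, and 26 rose without PA replicate 3. The median change was 0.39, or 0.30 with equal sums. All 6 subunits of the MCM helicase, which unwinds DNA at the fork, rose. Mcm5 was 6.86, 6.47 and 6.97 FPKM in PA and 13.1, 12.6 and 12.8 in PA + C3G, a change of 0.96 ± 0.04 (SE, edgeR adjusted p = 1.12e-05), with tight replicates and a BSA mean of 27.4 ± 0.802. Mcm6 was 28.2, 27.5 and 27.3 FPKM in PA and 41.4, 39.5 and 39 in PA + C3G (0.57 ± 0.04, edgeR adjusted p = 3.22e-05), and Mcm3 rose by 0.76 ± 0.07, Mcm2 by 0.36 ± 0.05, Mcm4 by 0.28 ± 0.05 and Mcm7 by 0.22 ± 0.04. Cdc6, which loads the helicase, changed most in the list, from a low level, 0.526, 0.574 and 0.601 FPKM in PA and 1.39, 1.86 and 1.78 in PA + C3G (1.60 ± 0.14, edgeR adjusted p = 1.80e-04). Its PA + C3G values lay between the PA values and the BSA mean of 3.86 ± 0.109.

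Other fork genes followed. Cdc45, a helicase cofactor, rose by 0.97 ± 0.12, Gins1 by 0.96 ± 0.16 and the polymerase subunits Pola1 and Pole by 0.63 ± 0.07 and 0.71 ± 0.08. Pcna, the sliding clamp, was 78.7, 73.1 and 73 FPKM in PA and 122, 99 and 102 in PA + C3G (0.56 ± 0.08), and Rrm2, the ribonucleotide reductase subunit that limits nucleotide supply, was 10.3, 8.90 and 13.1 FPKM in PA and 25, 22.1 and 17.3 in PA + C3G (1.03 ± 0.17, edgeR adjusted p = 0.00281). Uhrf1, which carries DNA methylation through replication, rose by 0.81 ± 0.07. Orc3 fell (−0.19 ± 0.06). Lig1 (0.02), Tyms (0.04) and Rfc1 (0.04) did not pass. The summed FPKM of the list was 607 to 637 in PA, 747 to 811 in PA + C3G and 1269 to 1375 in BSA.

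The E2F strings TTTGGCGC and TTTCGCGC, searched on both strands, occur in 265 of all windows (0.792%). They occur in 142 of the 9217 windows of tested genes (1.54%) and in 13 of the 37 windows found for the replication list. Genes that rose hold 25 of those 37 windows and 10 of the 13 with a match. Mcm2, Mcm3, Mcm5, Mcm6 and Mcm7 are among these 10. Matches on opposite strands may overlap, as in the 2 overlapping matches in capitals before Mcm5 (chr19:13488563-13488812, plus strand) and Mcm6 (chr13:42404353-42404602, minus strand).
Mcm5: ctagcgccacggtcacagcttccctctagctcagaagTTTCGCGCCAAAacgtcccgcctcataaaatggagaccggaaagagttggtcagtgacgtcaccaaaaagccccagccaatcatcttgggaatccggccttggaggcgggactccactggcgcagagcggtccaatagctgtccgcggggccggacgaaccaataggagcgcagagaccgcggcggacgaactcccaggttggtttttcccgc
Mcm6: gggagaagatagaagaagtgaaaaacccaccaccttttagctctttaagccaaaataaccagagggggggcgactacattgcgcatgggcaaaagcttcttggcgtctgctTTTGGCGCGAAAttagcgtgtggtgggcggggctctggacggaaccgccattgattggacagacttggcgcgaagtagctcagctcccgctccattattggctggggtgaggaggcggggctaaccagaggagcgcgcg

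Mitotic genes were mixed. Of 30 tested, 10 rose and 3 fell, against 7 and 5 with equal sums. Mybl2 (1.10 ± 0.12, edgeR adjusted p = 3.64e-04) and Foxm1 (0.58 ± 0.04, edgeR adjusted p = 4.98e-05), factors that drive late cell cycle genes, rose, as did the proliferation marker Mki67, at 8.61, 8.85 and 8.84 FPKM in PA and 10.8, 11.9 and 12 in PA + C3G (0.44 ± 0.06), and Top2a (0.49 ± 0.08). In contrast Aurkb, a kinase of chromosome segregation, was 15.2, 16.9 and 14.4 FPKM in PA and 10.2, 10.4 and 11.8 in PA + C3G (−0.48 ± 0.07, edgeR adjusted p = 0.00194), and Ccnb1, the cyclin of entry into mitosis, was 21, 18.7 and 19.98 FPKM in PA and 16.6, 13.7 and 16.3 in PA + C3G (−0.32 ± 0.08). Cenpf fell (−0.31 ± 0.09). Cdk1 (0.11), Plk1 (0.03) and Birc5 (−0.00) had adjusted p-values of 0.591, 0.857 and 0.992. In the list of cell cycle regulators 6 of 23 rose and 2 fell, against 3 and 3 with equal sums. Those that rose include the repressors E2f7 (0.76 ± 0.15) and E2f8 (0.99 ± 0.09, edgeR adjusted p = 2.10e-04) and the cyclin Ccne1 (0.69 ± 0.15). Myc, the growth factor-responsive activator, fell from 43.5 ± 1.77 FPKM in PA to 26.9 ± 1.96 in PA + C3G (−0.65 ± 0.07, edgeR adjusted p = 3.29e-04), below its BSA mean of 39.7 ± 2.92, and Cdkn1b, which encodes the cell cycle inhibitor p27, fell (−0.20 ± 0.04).

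**Figure D3:**
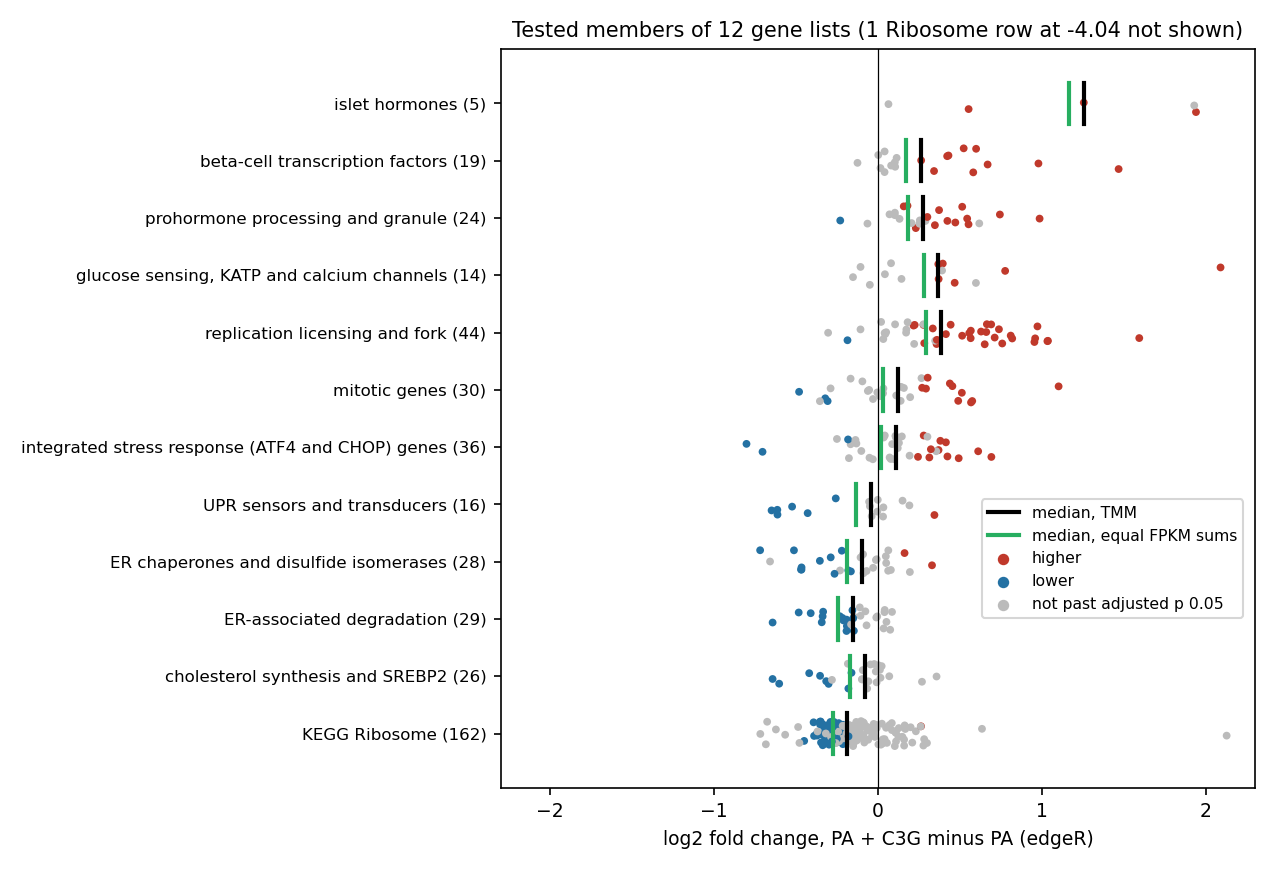
The log2 fold change of each tested member of 12 gene lists (number of tested members in parentheses), red where higher, blue where lower and grey where the adjusted p-value was not under 0.05, with the list median under TMM as a black bar and under equal FPKM sums as a green bar. The medians of the hormone, beta-cell and replication lists lie to the right of 0 and those of the ER, cholesterol and ribosome lists to the left under both scalings, and 1 ribosome row at −4.04 is not drawn.

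Cytosolic ribosomal protein genes fell in most tested members, by small amounts. The KEGG ribosome set counted 61 lower and 1 higher of 162, or 85 lower and none higher with equal sums. Of its 83 cytosolic genes tested, 52 fell and none rose, and 68 fell with equal sums, with a median log2 change of −0.25 or −0.34. Rpl4, of the large subunit, was 507, 530.4 and 537 FPKM in PA and 384, 413 and 396 in PA + C3G, a change of −0.36 ± 0.04 (SE, edgeR adjusted p = 4.67e-04). Its BSA mean was 378 ± 11.7, under every PA + C3G value. The summed FPKM of these genes was 37198 to 39448 in PA and 31262 to 32275 in PA + C3G. Many have near-identical copies elsewhere in the genome that can share reads. Of 39 mitochondrial ribosomal protein genes, 1 rose and 1 fell, with a median of 0.04. With equal sums 5 fell and the median was −0.05. The KEGG set of proteasome subunits counted 14 higher and 1 lower of 44, whereas with equal sums 1 was higher and 1 lower, and 4 to 7 were higher without any 1 of the PA libraries or PA + C3G replicate 1 or 3.

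Of 26 cholesterol synthesis genes, 8 fell and none rose, with 12 lower under equal sums and 5 without PA replicate 3. Insig1, the sterol-regulated brake on SREBP, was 219, 216 and 232 FPKM in PA and 145, 138 and 145 in PA + C3G (−0.60 ± 0.04, edgeR adjusted p = 5.90e-05). Mvd, a decarboxylase of the mevalonate pathway, was 22.5, 20.4 and 23.3 FPKM in PA and 16, 13.9 and 11.4 in PA + C3G (−0.64 ± 0.12, edgeR adjusted p = 0.00469), and Hmgcs1 fell as well (−0.42 ± 0.07). Sqle, an oxygenase of the sterol branch, stood at 0.01 (adjusted p = 0.88). In fatty acid synthesis 5 of 17 fell and 1 rose (7 and 1 with equal sums). Srebf1, which encodes the lipogenic factor SREBP1, was 123, 118 and 133 FPKM in PA and 88.1, 93.2 and 92.5 in PA + C3G (−0.41 ± 0.04, edgeR adjusted p = 4.01e-04). Fasn, the fatty acid synthase, was 96.1, 92.3 and 97 FPKM in PA and 72.9, 72.8 and 72.5 in PA + C3G (−0.35 ± 0.03, edgeR adjusted p = 1.87e-04). Scd2, a desaturase that makes monounsaturated fatty acids, was 1037, 1059.9 and 1090.1 FPKM in PA and 789.95, 828 and 820.5 in PA + C3G (−0.35 ± 0.03, edgeR adjusted p = 1.87e-04). All 3 lipogenic genes stayed above their BSA means, which were 44.2 ± 0.886, 47.3 ± 1.10 and 465 ± 9.77. Fads3, a desaturase-like gene, rose (0.71 ± 0.09, edgeR adjusted p = 9.93e-04).

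In mitochondrial fatty acid oxidation 6 of 20 rose and 1 fell, or 4 and 4 with equal sums. Hadh, a β-oxidation enzyme that is highly expressed in beta cells, was 64.1, 69.3 and 59.3 FPKM in PA and 89.9, 94.6 and 90.9 in PA + C3G (0.55 ± 0.06, edgeR adjusted p = 4.54e-04), and Cpt2 rose by 0.33 ± 0.05, Acadvl by 0.25 ± 0.04. The entry enzyme Cpt1a stood at −0.08 (adjusted p = 0.415). Of 19 lipid droplet and triglyceride genes 4 rose and 4 fell (3 and 4 with equal sums). Lpin1, a phosphatidate phosphatase, fell (−0.48 ± 0.05, edgeR adjusted p = 3.14e-04) while G0s2, an inhibitor of lipolysis, rose from 116 ± 10.6 FPKM in PA to 159.8 ± 5.85 in PA + C3G (0.49 ± 0.07, edgeR adjusted p = 0.0018). Of 28 KEGG citrate cycle genes, 10 fell and 1 rose, or 13 and none with equal sums, with Sdha (−0.30 ± 0.04) and Idh3b (−0.34 ± 0.05) among those that fell.

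Antioxidant genes did not move in a single direction. Of 27 NRF2 targets and antioxidant enzymes, 2 rose, the peroxiredoxins Prdx1 (0.33 ± 0.07) and Prdx4 (0.31 ± 0.06), and 6 fell, including Sqstm1 (−0.22 ± 0.04), Sod1 (−0.22 ± 0.05), Cat (−0.21 ± 0.05) and Gclc (−0.31 ± 0.08). With equal sums 2 rose and 10 fell, and without PA replicate 1 or PA + C3G replicate 3, 3 fell. The sentinel targets Nqo1 (−0.13) and Hmox1 (−0.10) had adjusted p-values of 0.621 and 0.783, at low levels. None of the 5 tested aryl hydrocarbon receptor genes was called by edgeR with TMM, 1 of them (Tiparp) had an unadjusted p-value under 0.05, DESeq2 called none, and edgeR with equal sums called 1 lower. Of 21 apoptosis regulators, 2 rose and 2 fell (2 and 4 with equal sums), a called share of 19.0% beside 21.2% of all tested genes.

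**Figure D4:**
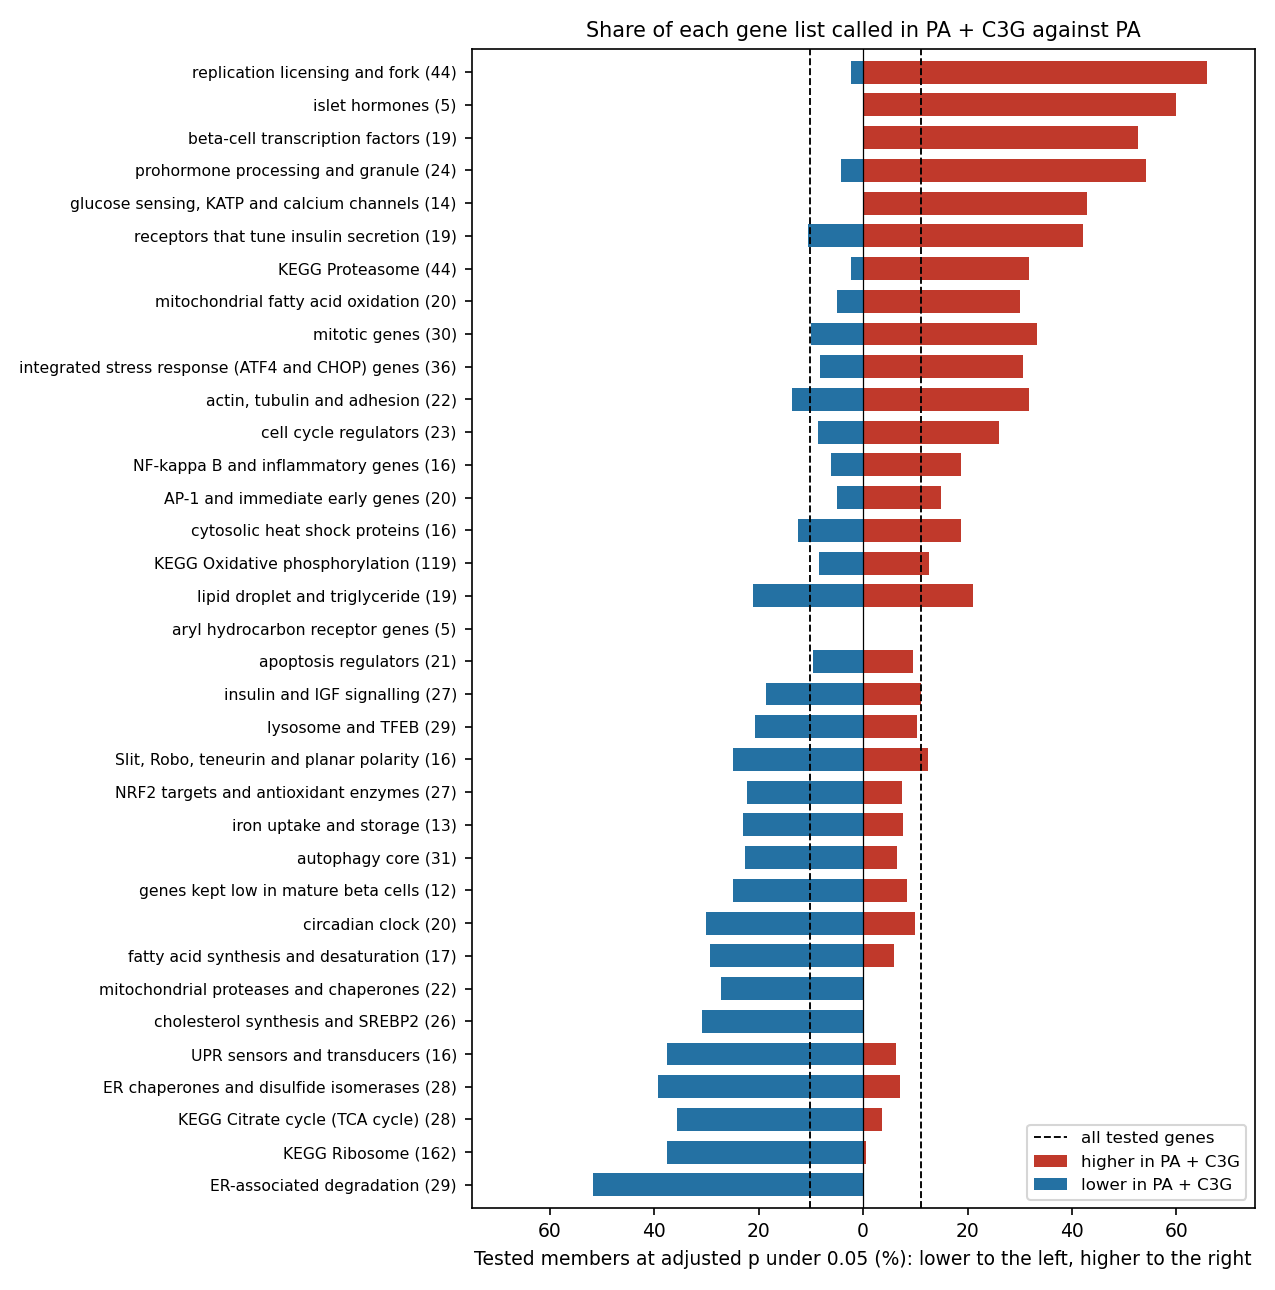
Share of the tested members of each gene list (number in parentheses) at an adjusted p-value under 0.05, with members that were higher in PA + C3G to the right and lower to the left, and dashed lines at the 11.1% higher and 10.2% lower of all tested genes. Replication, hormone, transcription factor and granule lists reach past 50% on the right, and ER-associated degradation reaches past 50% on the left.

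The largest single rises and falls were taken by rule, 12 in each direction, among called genes whose PA and PA + C3G libraries did not overlap. Their mean over the 9 libraries had to reach 5 FPKM. BSA levels count in that mean, so a gene could pass with PA and PA + C3G levels partly under 5. Rows with a symbol that begins with LOC, RGD, AABR, AC or ENSRNOG were left out, so larger changes may exist among them. Apart from the insulin genes, the rises include receptors and secreted factors. Ngfr, a receptor for nerve growth factor, was 10.1, 16 and 10.6 FPKM in PA and 31.3, 56.3 and 43.5 in PA + C3G (1.87 ± 0.23, edgeR adjusted p = 6.95e-04). Tff3, a trefoil peptide of mucosal repair, was 20.8, 28.4 and 23.7 FPKM in PA and 68.4, 63.1 and 75.4 in PA + C3G (1.54 ± 0.12, edgeR adjusted p = 1.19e-04), with BSA at 146 ± 15.6. Tgfb2, a secreted growth factor, was 1.53, 1.94 and 1.65 FPKM in PA and 4.34, 5.60 and 6.30 in PA + C3G (1.70 ± 0.15, edgeR adjusted p = 1.80e-04). F3, the tissue factor that starts coagulation, was 3.21, 4.80 and 3.12 FPKM in PA and 8.40, 13 and 10.8 in PA + C3G (1.57 ± 0.23). Pclaf and Cdca5, which act in replication and in sister chromatid cohesion, rose by 1.29 ± 0.28 and 1.26 ± 0.18, and Pdgfrl by 1.39 ± 0.21.

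Among the falls, Id2, an inhibitor of basic helix-loop-helix factors, was 36.5, 24.9 and 34.9 FPKM in PA and 14.9, 11.2 and 12.5 in PA + C3G (−1.28 ± 0.17, edgeR adjusted p = 0.001), with BSA at 9.55 ± 1.39. Ifi27l2b, an interferon-inducible gene, was 215, 182 and 249.5 FPKM in PA and 99.4, 87 and 85.4 in PA + C3G (−1.21 ± 0.13, edgeR adjusted p = 4.01e-04), and still above the BSA mean of 33.6 ± 5.20. Fabp5, a fatty acid binding protein, was 89.6, 78.9 and 98.9 FPKM in PA and 50.1, 43.4 and 41.6 in PA + C3G (−0.95 ± 0.12, edgeR adjusted p = 6.95e-04), below a BSA mean of 69 ± 9.28. Robo1, an axon guidance receptor, was 27, 31 and 30.4 FPKM in PA and 13.1, 15.2 and 14.2 in PA + C3G (−1.02 ± 0.07, edgeR adjusted p = 4.06e-05), and Vangl1, of planar cell polarity, 14, 14.6 and 14.9 FPKM in PA and 6.33, 7.21 and 6.86 in PA + C3G (−1.06 ± 0.07, edgeR adjusted p = 3.22e-05). Elmsan1, a histone deacetylase complex subunit, was 13.1, 12.3 and 13.8 FPKM in PA and 5.93, 5.55 and 5.74 in PA + C3G (−1.15 ± 0.06, edgeR adjusted p = 1.82e-05). Arhgef2 (−0.91 ± 0.07), Slc6a15 (−0.99 ± 0.08), Cadm3 (from 8.29 ± 1.66 FPKM in PA to 4.03 ± 0.464 in PA + C3G) and Tp53inp1 (−0.92 ± 0.21), a p53-induced autophagy gene, complete the list with Pak2 and Pigc.

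A few of these values are uncertain. Senp1, a SUMO protease, has 2 rows. The named row was 0, 0.252 and 0.445 FPKM in PA and 7.67, 8.62 and 8.52 in PA + C3G (5.18 ± 0.74, edgeR adjusted p = 0.0016), while the other was 10.5, 12.7 and 13.1 FPKM in PA and 10.4, 10.8 and 11.4 in PA + C3G (−0.12 ± 0.10). Pak2, a kinase, was 19.3, 17.3 and 19.7 FPKM in PA and 6.64, 7.22 and 6.03 in PA + C3G (−1.46 ± 0.26, edgeR adjusted p = 0.00453), but its BSA libraries were 17.3, 19.0 and 8.02. The row LOC103689978, chosen after its values were seen, starts 26546 bases past the end of Pak2 on the same strand, and was 0 in all 3 PA libraries, 5.94, 7.72 and 6.17 in PA + C3G and 7.24, 7.05 and 6.98 in BSA. Pigc was 25.9, 28.6 and 31.4 FPKM in PA and 10.7, 12.2 and 10.7 in PA + C3G (−1.32 ± 0.28), with BSA at 22.7, 24.5 and 9.52. How reads were assigned among such rows was not tested.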

How the data were processed

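RNA from INS-1E cells (oligo(dT) selection, strand-marking dUTP libraries, paired-end Illumina reads) was profiled in 9 libraries, 3 each of BSA, PA and PA + C3G. Per the submitters' processing notes, tools included cutadapt 1.9, HISAT2 2.0.4, StringTie 1.3.4d, DESeq2 and edgeR; the genome build is not given in the sources used here. The deposited table holds estimated counts and FPKM per gene as the authors computed them. Columns with the authors' own comparisons were not used. Estimated counts were fitted in edgeR 4.0.16 (R 4.3.3) with TMM normalization, a quasi-likelihood model over all 9 libraries and Benjamini-Hochberg adjustment over the 12958 genes whose FPKM averaged 1 or more across libraries. The fit was tested on simulated counts. Errors of fold changes are SE and others SD. Each SE was derived as the size of the log2 fold change divided by the square root of its quasi-likelihood F statistic. Total estimated counts were 45559993 to 66730721 per library, and the number of separate fragments behind them may be smaller. With counts divided by 4 the fit called 2754 genes, 1418 higher and 1336 lower.

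Members and gene lists (31 made by hand and 34 KEGG pathways) were chosen with earlier results of these data known. Named genes were the 12 largest rises and falls with no overlap and the same direction with equal FPKM sums. These had a mean of at least 5 FPKM over the 9 libraries, BSA included, and no symbol beginning with LOC, RGD, AABR, AC or ENSRNOG. Up to 5 called genes per list by smallest p, and defining members, were named too. Further members were named after their values were seen. Alternatives were DESeq2 1.42.0, limma 3.58.1, other scalings and filters, counts divided by 4, a replicate block, and leaving out libraries. RefSeq promoter windows (GRCr8) were matched by Ensembl gene identifier, else by gene symbol or synonym. Further motif and list pairs were searched. TCACNCCAC, a sterol element, was in 0 of 19 cholesterol windows. GCCATCTG was in 0 of 13 windows of beta-cell transcription factors and 1 of 19 of granule genes. The E2F strings were in 1 of 24 mitotic windows. TGACGTGG, a further ER stress element, was in 3 of 24 chaperone, 3 of 21 degradation and 0 of 13 sensor windows. KEGG names are used only where the text gives their counts. Some genes the naming rule selects are not reported here.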

Additional observations from a re-analysis of the deposited data

How the results depend on the processing

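The count of 2752 changed genes was 3323 with DESeq2, 2761 with DESeq2's size factors in edgeR, 2701 with limma on log2(FPKM + 1), 2690 with a pseudocount of 0.1, 2445 of 20645 genes with no filter, 2580 of 9863 at a mean of 5 FPKM or more and 2516 with the compared libraries alone. With equal FPKM sums 774 genes were higher and 2554 lower. The count past a 2-fold change, 147, was 440 with no filter on low values, 49 at 5 FPKM or more and 62 with limma on log2(FPKM + 1), whose pseudocount shrinks the changes of low genes. Leaving out a library in turn gave 1718 to 2838 changed genes, 921 to 1474 higher and 797 to 1364 lower, the lowest of each without PA replicate 3. The cause was not tested. With the replicate number as a block 3118 genes passed (1688 higher and 1430 lower), and the islet hormone list counted 4 higher in place of 3 and the granule list 20 in place of 13. Deviations of same-numbered PA and PA + C3G libraries correlated across genes at only 0.08, 0.03 and 0.06, so the numbers were not taken as pairs, although each library correlated best with its own number. No direction reversed in any alternative run among 259 genes, all of them called in the main fit. They were picked by small p-values or large changes, and the runs share libraries, so this outcome was largely fixed in advance. Of the 259 genes, 12 lost the threshold with equal FPKM sums and 17 without PA replicate 3. The Ins2 to Ins1 log2 ratio difference, 0.69, was 0.56 to 0.85 with a library left out. Depth limits genes under 5 FPKM most.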

Other observations

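Iron handling and the mitochondrial quality genes held large single changes. Tfrc, the transferrin receptor, was 37.1, 33.6 and 35.8 FPKM in PA and 66.8, 65.3 and 68 in PA + C3G, a log2 change of 0.95 ± 0.09 (SE, edgeR adjusted p = 2.10e-04), while the mitochondrial iron importers Slc25a37 and Slc25a28 fell (−0.70 ± 0.13 and −0.55 ± 0.06). Of 13 iron genes, 1 rose and 3 fell, a called share of 30.8% beside 21.2% of all tested genes. Lonp1, the mitochondrial matrix protease, was 148, 139.8 and 157 FPKM in PA and 91.3, 86.2 and 91.2 in PA + C3G (−0.69 ± 0.04, edgeR adjusted p = 3.22e-05), and Ppargc1a, a coactivator of mitochondrial genes, fell from 4.40 ± 0.885 FPKM in PA to 2.23 ± 0.143 in PA + C3G (−0.94 ± 0.22, edgeR adjusted p = 0.014). Of 22 mitochondrial proteases and chaperones, 6 fell and none rose, 10 fell with equal FPKM sums, and 2 or 3 fell without PA replicate 1 or 3 or PA + C3G replicate 2 or 3. The called share under TMM was 27.3%, beside the same 21.2%. The highest log2 change in this list, 4.02 for Yme1l1, was upward and did not pass.

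Of 20 tested clock genes 2 rose and 6 fell (1 and 9 with equal FPKM sums), and 3 fell without PA replicate 1 or PA + C3G replicate 3. Arntl, which encodes the clock activator BMAL1, was 1.86, 1.88 and 1.64 FPKM in PA and 3.77, 3.07 and 4.05 in PA + C3G (1.05 ± 0.12, edgeR adjusted p = 5.48e-04), with BSA at 8.51 ± 0.668. Its repressor Cry1 fell (−0.42 ± 0.06), as did Bhlhe40 (−0.47 ± 0.12), whereas Clock stood at 0.03 (adjusted p = 0.9).

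Of 16 Slit, Robo, teneurin and planar polarity genes, 2 rose and 4 fell (1 and 4 with equal sums). Tenm4, a teneurin, was 5.82, 6.59 and 6.69 FPKM in PA and 1.46, 1.91 and 1.68 in PA + C3G (−1.88 ± 0.11, edgeR adjusted p = 2.71e-05), with BSA at 1.95 ± 0.189. Lingo4 was 1.97, 1.89 and 1.40 FPKM in PA and 0.148, 0.0625 and 0.0599 in PA + C3G (−4.19 ± 0.37, edgeR adjusted p = 1.80e-04), far below its BSA mean of 2.31 ± 0.619. Robo2 rose (0.39 ± 0.07) while Robo1 fell. Of 20 immediate early genes 3 rose and 1 fell, against 3 and 4 with equal sums, a called share of 20% under TMM beside 21.2% of all tested genes. Klf2, a flow-responsive factor, rose (0.84 ± 0.16, edgeR adjusted p = 0.00677) and Maff fell (−0.49 ± 0.11, edgeR adjusted p = 0.0131).

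Insulin and IGF signalling genes counted 3 higher and 5 lower of 27 (2 and 6 with equal sums), with 2 or 3 lower without PA replicate 2 or 3 or PA + C3G replicate 1 or 3. Insr, the insulin receptor, was 1.94, 2.27 and 2.18 FPKM in PA and 1.39, 1.59 and 1.48 in PA + C3G (−0.48 ± 0.11, edgeR adjusted p = 0.0151), and Irs2, its docking protein in beta cells, fell from 112 ± 4.45 FPKM in PA to 89.8 ± 2.62 in PA + C3G (−0.29 ± 0.04, edgeR adjusted p = 0.00185), while Igf1r, the receptor for IGF1, was 11.5, 11.1 and 12.1 FPKM in PA and 17.3, 16 and 15.4 in PA + C3G (0.53 ± 0.09, edgeR adjusted p = 0.00391). The related receptors changed in opposite directions under TMM and with equal FPKM sums.

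Among 12 tested genes that mature beta cells are known to keep low, 1 rose and 3 fell (1 and 4 with equal sums). Slc16a1, a lactate transporter whose silence keeps exercise from triggering secretion, was 7.56, 8.26 and 9.19 FPKM in PA and 5.16, 5.75 and 4.71 in PA + C3G (−0.64 ± 0.11, edgeR adjusted p = 0.00342), with BSA at 5.60 ± 0.418. Oat (−0.44 ± 0.08) and Sox9 (−0.47 ± 0.13), a progenitor factor, fell, and Tgm2, a transglutaminase, rose from 6.67 ± 1.41 FPKM in PA to 13 ± 2.95 in PA + C3G (edgeR adjusted p = 0.00947). Of 29 lysosome genes, 3 rose and 6 fell, or 1 and 10 with equal sums, with Npc2, a cholesterol carrier of the lysosome, at 63.9, 60.1 and 65 FPKM in PA and 40.3, 34.6 and 39.6 in PA + C3G (−0.69 ± 0.08, edgeR adjusted p = 4.54e-04). Of 31 autophagy genes, 2 rose and 7 fell (2 and 8 with equal sums), or 4 fell without any 1 of the PA libraries or PA + C3G replicate 1 or 3. Of 16 cytosolic heat shock genes 3 rose and 2 fell, against 1 and 3 with equal sums, including among the falls the constitutive chaperone Hspa8 (−0.45 ± 0.06, edgeR adjusted p = 0.00108). Of 22 actin, tubulin and adhesion genes 7 rose and 3 fell, against 2 and 4 with equal FPKM sums, and of 119 KEGG oxidative phosphorylation genes 15 rose and 10 fell, against 5 and 27. Of 16 inflammatory genes 3 rose and 1 fell, against 2 and 3 with equal sums. Called shares were 21.0% in the oxidative phosphorylation set and 25% in the inflammatory list, near the 21.2% of all tested genes. Over all tested genes the equal-sum split was 774 higher and 2554 lower.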
